A study of Mus musculus with 2 samples.

Results

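The genes described here are the 3 equilibrative nucleoside transporters Slc29a1, Slc29a2 and Slc29a3, the 6 nucleotidases Nt5c, Nt5c2, Nt5c3, Nt5c3b, Nt5e and Nt5m, and the kinase Cmpk1. They were taken by symbol and by no rule on their values, though the choice was made with earlier results of these data known. All 10 were found among the 55350 symbols of the deposited table. KPC2 is a mouse pancreatic cancer line. One group was KPC2 wild type cells without treatment, and the other was gemcitabine resistant KPC2 cells, which had been treated long term and were maintained with 260 ng/mL gemcitabine. Both grew in the same serum-containing medium, and RNA was sequenced from 1 library per group. Because only that group was exposed, an effect of the drug being present and a stable property of the derived line cannot be told apart. There were no replicates, so no test between the conditions was possible, and the intervals given with the values cover counting error only.

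Gemcitabine is a deoxycytidine analogue that crosses the plasma membrane through nucleoside transporters, mainly the equilibrative carrier encoded by Slc29a1. Inside the cell a deoxynucleoside kinase adds the first phosphate and the UMP/CMP kinase encoded by Cmpk1 adds the next. 5'-Nucleotidases remove the phosphate of nucleoside monophosphates, which returns them to the nucleoside form. Nt5e differs from the other nucleotidases in place: its product, CD73, sits on the outer face of the plasma membrane and makes adenosine from extracellular AMP.

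In resistant cells 2 of the 10 genes, Slc29a1 and Nt5c2, were at least 2-fold lower and none was at least 2-fold higher. These calls use log2((resistant FPKM + 1)/(wild type FPKM + 1)), called the log2 ratio, and are made for measured genes, those reaching 1 FPKM in either library. FPKM is a level scaled to transcript length and sequencing depth. All 10 genes were measured. Of all 12193 measured genes 16.3% were at least 2-fold apart, 7.9% higher and 8.37% lower, against 20% of these 10 apart, all of them lower. In a set of 10, 2 genes cannot be read as a departure from that background. Their median log2 ratio was -0.08, and the median over all measured genes was 0.02.

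Both genes that passed the 2-fold line have several transcription starts in RefSeq, 8 for Slc29a1 and 7 for Nt5c2, and the deposited values do not separate them. To show the sequence ahead of a start site, the 250 bases before 1 start of each are printed, 5′ to 3′ on the gene's strand, on GRCm38.p6 from RefSeq. The start taken was the most upstream one that lay within 50 bases of an annotated coding transcript's start and had no annotated exon in those 250 bases. Both genes are on the minus strand, Slc29a1 with chr17:45599619-45599868 and Nt5c2 with chr19:46969569-46969818. The Slc29a1 window lies before the annotated gene, while the Nt5c2 window lies inside it, since other Nt5c2 transcripts start further upstream. Capitals mark matches, on either strand, to any of 7 motifs: the GC box GGGCGG, the CCAAT box, the TATA box TATAAA, the hypoxia response core ACGTG, the E-box CACGTG, the AP-1 motif TGANTCA and the ATF4 motif TGATGNAA. The E-box contains the hypoxia response core.
Slc29a1: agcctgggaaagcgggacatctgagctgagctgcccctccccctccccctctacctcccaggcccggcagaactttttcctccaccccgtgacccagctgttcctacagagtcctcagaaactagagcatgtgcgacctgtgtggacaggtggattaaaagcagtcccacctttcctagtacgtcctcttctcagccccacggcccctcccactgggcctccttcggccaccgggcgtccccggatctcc
Nt5c2: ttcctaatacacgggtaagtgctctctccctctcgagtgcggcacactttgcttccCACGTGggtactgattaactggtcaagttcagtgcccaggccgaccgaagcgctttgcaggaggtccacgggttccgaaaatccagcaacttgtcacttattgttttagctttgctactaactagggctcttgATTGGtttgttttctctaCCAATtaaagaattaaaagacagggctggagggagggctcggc
The Slc29a1 window held none of the 7 motifs. The Nt5c2 window held 1 E-box, starting 194 bases before the start site, which also gives the hypoxia response core on both strands, and 2 CCAAT boxes, 61 and 43 bases before it. Of 32851 RefSeq windows of this length, 6.02% held an E-box, 16.6% the hypoxia response core, 33.8% a CCAAT box and 32.7% a GC box. The TATA box was in 12.4%, the AP-1 motif in 6.75% and the ATF4 motif in 3.45% of them. The G and C content was 62.4% for Slc29a1 and 49.6% for Nt5c2, beside a median of 52.4% over all windows. These matches describe the letters alone.

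**Figure D1:**
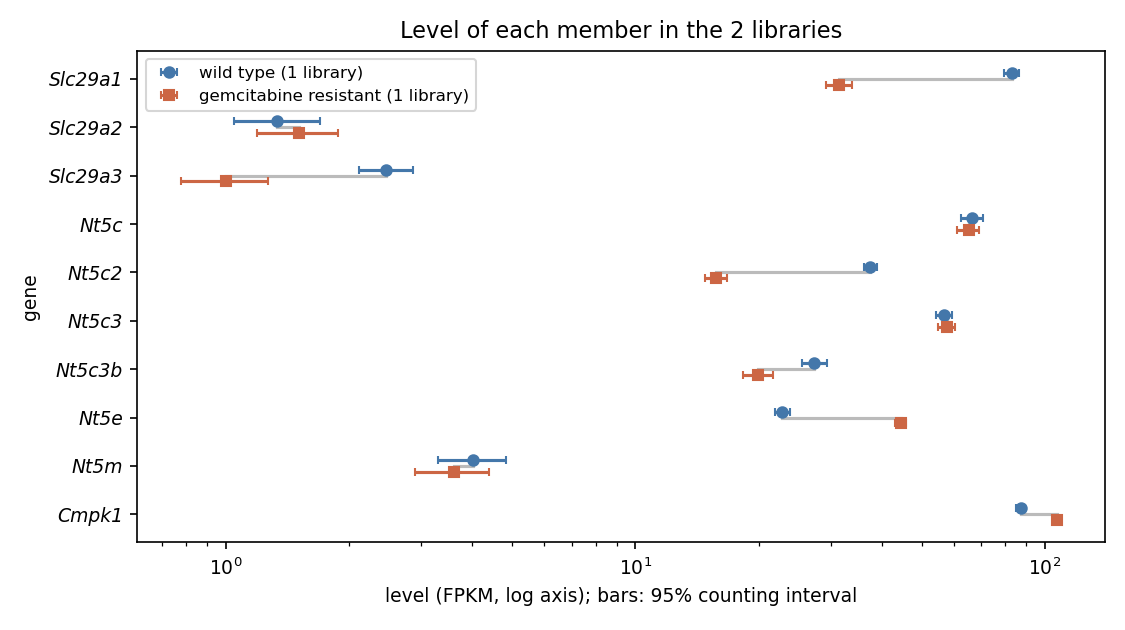
Level of each gene in FPKM (log axis) in the wild type library (circles) and the gemcitabine resistant library (squares), 1 library each, with bars for the 95% counting interval. The 2 points stand furthest apart for Slc29a1, Slc29a3, Nt5c2 and Nt5e, and the intervals overlap for Slc29a2, Nt5c, Nt5c3 and Nt5m.

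Slc29a1 encodes the main equilibrative carrier for purine and pyrimidine nucleosides at the plasma membrane. It stood at 83.0 FPKM in wild type cells (95% counting interval 79.5 to 86.7) and at 31.5 FPKM in resistant cells (29.3 to 33.7). The resistant library was the low one, 2.64-fold below the wild type (counting interval 2.43 to 2.87), with a log2 ratio of -1.37. Of the 12193 measured genes 426, or 3.49%, had a log2 ratio that low or lower. Among 1341 genes of similar level, with a mean log2(FPKM + 1) between 5 and 6, 2.91% were at least 2-fold lower. The gene lies on chromosome 17 of GRCm38 from 45585200 to 45599606, on the minus strand, and its longest complete coding transcript has 12 exons.

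Slc29a2 encodes the second carrier of the family at the plasma membrane, which also takes nucleobases. It was close to the measuring limit, at 1.34 FPKM in wild type (1.05 to 1.70) and 1.51 FPKM in resistant cells (1.19 to 1.88). These values rest on about 71 and 77 fragments, the counting intervals overlap, and the ratio of 1.13 had a counting interval of 0.80 to 1.57. A difference of this size was not detectable at this depth. Slc29a2 lies on chromosome 19 from 5023860 to 5031972, on the plus strand.

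Slc29a3 encodes a carrier of lysosomes and other inner membranes. It stood at 2.47 FPKM in wild type cells (2.12 to 2.87) and 1.00 FPKM in resistant cells (0.78 to 1.27), on about 176 and 69 fragments. The 2 counting intervals did not overlap, and the level itself was 2.47-fold lower in resistant cells (counting interval 1.86 to 3.31). On the log2(FPKM + 1) scale, which understates differences of low genes, the log2 ratio was -0.79, inside the 2-fold line. Slc29a3 transcripts resemble those of 4 other annotated genes in part. Of these Cep162 (90.3% identity over 485 bases) stood at 2.54 FPKM in wild type and 2.48 FPKM in resistant cells and the other 3 were listed at 0, so the level of Slc29a3 is uncertain. Among the 1943 genes of similar level, 13.0% were at least 2-fold lower and 9.98% higher. Slc29a3 lies on chromosome 10 from 60712072 to 60752794, on the minus strand.

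Summed over the 3 carriers, the level was 86.8 FPKM in wild type and 33.96 FPKM in resistant cells. Slc29a1 made up 95.6% of the sum in wild type and 92.6% in resistant cells. The share of Slc29a2 was 1.54% and 4.44%, and that of Slc29a3 was 2.84% and 2.94%. The other nucleoside carriers taken as a list were below 1 FPKM in both libraries. These are the concentrative transporters Slc28a1, Slc28a2, Slc28a2b and Slc28a3, which take nucleosides up with sodium, and Slc29a4, a monoamine and adenosine carrier. All 5 were listed at 0 in wild type cells, and in resistant cells Slc28a2 stood at 0.016 FPKM, Slc28a3 at 0.0098 FPKM and the others at 0.

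**Figure D2:**
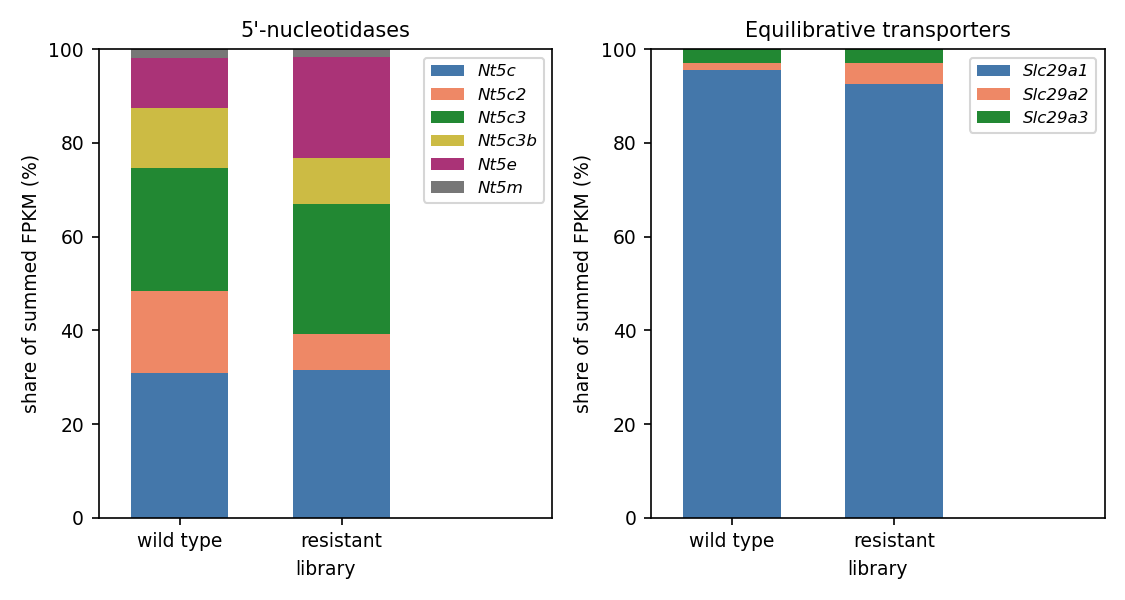
Share of each gene in the summed FPKM of the 6 nucleotidases (left) and of the 3 equilibrative transporters (right), as percent, in the wild type and the resistant library. Slc29a1 fills most of the transporter bars (95.6% in wild type and 92.6% in resistant cells), while among the nucleotidases the share of Nt5c2 is 17.5% and 7.63% and that of Nt5e 10.6% and 21.5%.

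Among the nucleotidases, Nt5c2 was lower and Nt5e had the highest log2 ratio of the 10 genes. Nt5c2 encodes a cytosolic enzyme that prefers IMP and GMP. It stood at 37.5 FPKM in wild type (36.1 to 39.0) and 15.7 FPKM in resistant cells (14.8 to 16.7). The resistant library was 2.38-fold lower (counting interval 2.22 to 2.56) with a log2 ratio of -1.20, and 5.29% of measured genes had a log2 ratio that low or lower. Among the 2139 genes of similar level 4.72% were at least 2-fold lower. Nt5c2 lies on chromosome 19 from 46883317 to 47015153, on the minus strand, and its longest complete coding transcript has 18 exons.

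Nt5e stood at 22.9 FPKM in wild type (21.9 to 23.9) and 44.4 FPKM in resistant cells (43.0 to 45.8). The ratio was 1.94 (counting interval 1.84 to 2.05), and the log2 ratio of 0.93 lay just inside the 2-fold line. A log2 ratio that high or higher was found for 9.37% of measured genes. CD73 is also carried by some fibroblasts and leukocytes. The 6 fibroblast markers summed to 0.34 FPKM in wild type and 0.24 FPKM in resistant cells. The 6 leukocyte markers summed to 1.54 and 7.24 FPKM. The 2 measured ones, Cd68 (1.17 and 5.48 FPKM) and Lyz2 (0.36 and 1.53 FPKM), were both higher in resistant cells. The pan-leukocyte gene Ptprc stood at 0 and 0.23 FPKM and Cd3e at 0 in both. The part of other cells in the level of Nt5e was not tested. Nt5e lies on chromosome 9 from 88327197 to 88372092, on the plus strand, with 9 exons.

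The other cytosolic nucleotidases were closer between the libraries. Nt5c, whose product acts on deoxyribonucleoside monophosphates, stood at 66.4 FPKM in wild type (62.4 to 70.5) and 65.1 FPKM in resistant cells (61.1 to 69.2). Nt5c3, which encodes the pyrimidine-specific enzyme that takes CMP and UMP, stood at 56.7 FPKM (54.1 to 59.3) and 57.6 FPKM (54.9 to 60.3). For both genes the counting intervals of the 2 libraries overlapped, and the ratios of resistant to wild type were 0.98 (0.90 to 1.07) and 1.02 (0.95 to 1.08).

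Nt5c3b, the relative of Nt5c3 whose product also acts on 7-methylguanosine monophosphate, was at 27.4 FPKM in wild type (25.5 to 29.4) and 19.9 FPKM in resistant cells (18.3 to 21.7). Its counting intervals did not overlap, and its log2 ratio of -0.44 lay within the 2-fold line. Nt5c3b shares 193 exon bases with Fkbp10, which lies on the opposite strand and stood at 4.11 FPKM in wild type and 0.38 FPKM in resistant cells. The sources used here do not say whether the counting used strand, so reads of the 2 genes in that stretch cannot be told apart. Nt5m, the mitochondrial deoxyribonucleotidase, stood at 4.03 FPKM in wild type (3.30 to 4.84) and 3.60 FPKM in resistant cells (2.90 to 4.39), with overlapping intervals. It shares 87 exon bases with Cops3 on the opposite strand, which stood far above it at 53.6 and 54.2 FPKM, so the level of Nt5m is uncertain.

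Nt5c lies on chromosome 11 from 115490420 to 115491862, Nt5c3 on chromosome 6 from 56882400 to 56923932 and Nt5c3b on chromosome 11 from 100422321 to 100441808, all on the minus strand. Nt5m lies on chromosome 11 from 59839447 to 59880968, on the plus strand. Shorter overlaps on opposite strands were found for Nt5c with Armc7 (48 exon bases), which stood at 1.65 and 0.72 FPKM in wild type and resistant cells. Exons of Slc29a1 shared 275 bases with the antisense gene Gm17080, which stood at 0.13 and 0.067 FPKM. Exons of Nt5c2 shared 456 bases with Ina, listed at 0 in both libraries, and 123 bases with the non-coding gene AC122442.1, at 0.72 FPKM in wild type and 0 in resistant cells.

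The summed level of the 6 nucleotidases was 214.8 FPKM in wild type and 206 FPKM in resistant cells, so the total was nearly level while its makeup differed. The share of Nt5c2 was 17.5% in wild type and 7.63% in resistant cells, and that of Nt5e was 10.6% and 21.5%. Nt5c held 30.9% and 31.5%, and Nt5c3 held 26.4% and 27.9%. Summed over the cytosolic genes Nt5c, Nt5c2, Nt5c3 and Nt5c3b, the level was 188 FPKM in wild type and 158 FPKM in resistant cells.

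Cmpk1, whose product phosphorylates CMP, UMP, dCMP and gemcitabine monophosphate, was the gene with the highest level of the 10 in both libraries. It stood at 87.2 FPKM in wild type (85.1 to 89.4) and 106.9 FPKM in resistant cells (104.5 to 109.3). The counting intervals did not overlap, and the ratio was 1.23 (counting interval 1.19 to 1.27) with a log2 ratio of 0.29. These intervals leave out the scaling between the libraries. Cmpk1 has a processed pseudogene, Gm5867, with 96.5% identity over 592 bases, which stood at 0.39 FPKM in wild type and 0.30 FPKM in resistant cells. The level of Cmpk1 was 2.32 times that of Nt5c2 in wild type and 6.79 times in resistant cells, and 1.54 and 1.86 times that of Nt5c3. Cmpk1 lies on chromosome 4 from 114959336 to 114987241, on the minus strand.

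In wild type cells the order of the levels in FPKM, from the highest, was Cmpk1, Slc29a1, Nt5c, Nt5c3, Nt5c2, Nt5c3b, Nt5e, Nt5m, Slc29a3 and Slc29a2. The counting intervals of Cmpk1 and Slc29a1 overlapped and those of all other neighbours in this order did not. In resistant cells the order was Cmpk1, Nt5c, Nt5c3, Nt5e, Slc29a1, Nt5c3b, Nt5c2, Nt5m, Slc29a2 and Slc29a3, and only the last pair overlapped. Slc29a1 stood at rank 2 in wild type and rank 5 in resistant cells, Nt5e at ranks 7 and 4, and Nt5c2 at ranks 5 and 7. The level of Nt5e was 0.28 times that of Slc29a1 in wild type and 1.41 times in resistant cells.

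**Figure D3:**
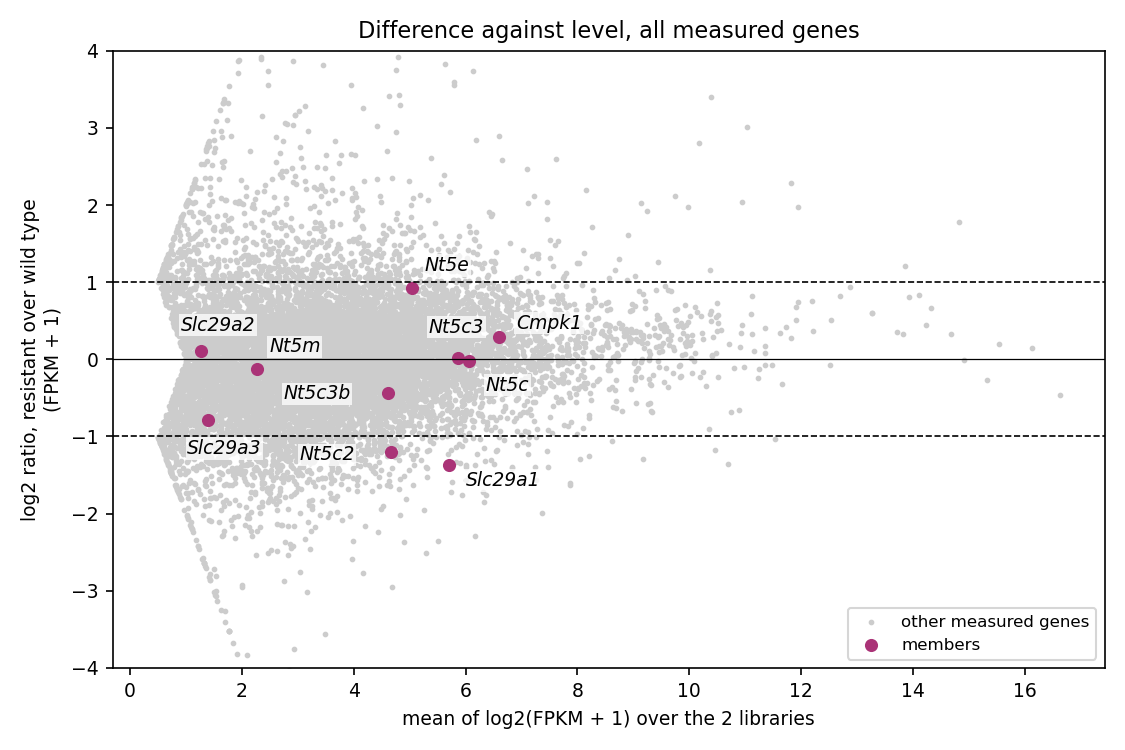
Log2 ratio of resistant to wild type against the mean log2(FPKM + 1) of both libraries, for the 10 genes (labelled) and all other measured genes (grey), with dashed lines at 2-fold. Slc29a1 (-1.37) and Nt5c2 (-1.20) lie below the lower line, Nt5e (0.93) just under the upper one, and 63 of 12193 genes lie beyond the axis limits.

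The authors ran a test of 1 library against 1, and in the authors' deposited table none of the 10 genes was called. The authors called 56 of 13850 tested rows, or 0.404%. For Slc29a1 the authors' deposited table gave a p-value of 0.0302 and a q-value of 0.940, and the log2 fold change there was -1.40. For Nt5c2 the authors' deposited table gave a log2 fold change of -1.25 with a q-value of 0.998, and for Nt5e a log2 fold change of 0.96 with the same q-value.

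Other genes of nucleoside metabolism were taken as 5 lists, also chosen with earlier results known. They showed 1 gene higher and 1 gene lower by 2-fold or more among 33 measured of 58. That is 6.06% of the measured ones, beside 16.3% of all measured genes. The share over all genes depended on level, at 37.1% for the lowest levels and 9.92% for the highest. A count this small cannot be read as a departure from that background. In the list of further nucleotidase relatives 3 of 5 were measured and all lay within 2-fold, with a median log2 ratio of 0.74. Its highest-level gene was Nt5dc2, at 46.5 FPKM in wild type and 29.3 FPKM in resistant cells. All 7 genes in the list of deoxynucleoside phosphorylation and deamination were measured and lay within 2-fold, with a median of -0.55. That median is the value of Samhd1 (18.4 FPKM in wild type and 12.3 FPKM in resistant cells). Its product does neither step but hydrolyses deoxynucleoside triphosphates. Thymidine kinase, Tk1, had the highest level of that list (62.9 and 65.2 FPKM). The lowest log2 ratio there was -0.83, that of deoxycytidine kinase, Dck, which adds the first phosphate to gemcitabine and stood at 15.3 FPKM in wild type and 8.18 FPKM in resistant cells.

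Of 21 genes in the list of nucleoside mono- and diphosphate kinases 13 were measured, with a median log2 ratio of 0.06. The list also holds uridine-cytidine kinase genes, which act on nucleosides: Uck1 (log2 ratio -0.96), Uck2 (0.75) and Uckl1 (0.46). Nme3, a nucleoside diphosphate kinase gene, was the 1 at least 2-fold lower, at 10.96 FPKM in wild type and 4.05 FPKM in resistant cells (log2 ratio -1.24). Nme2 had the highest level of the list (190 and 264.9 FPKM). Among the 33 measured genes of these lists Nme3 had the log2 ratio nearest to that of Slc29a1 and also the nearest to that of Nt5c2, a likeness over 2 libraries only. Nme3 was the only 1 of the 33 at least 2-fold lower, so this nearness shows no shared pattern.

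Of 20 genes listed for the handling of adenosine and of extracellular nucleotides, 10 were measured, with a median log2 ratio of 0.03. The ectonucleotide pyrophosphatase gene Enpp3 was at least 2-fold higher, at 0.81 FPKM in wild type and 5.32 FPKM in resistant cells (log2 ratio 1.80). Adk, the adenosine kinase gene, had the highest level of that list (133.9 and 121 FPKM). Entpd1, whose product CD39 makes the AMP that CD73 uses, was listed at 0 in both libraries, and Entpd2, of the same family, stood at 9.46 and 10.8 FPKM. Enpp1, of the same family as Enpp3, stood at 12.8 FPKM in wild type and 20.0 FPKM in resistant cells (log2 ratio 0.61). Ada, the adenosine deaminase gene, stood at 4.52 and 9.98 FPKM (0.99). The lowest log2 ratio of the measured genes in this list was -0.64, that of Entpd7. Entpd1 and Entpd2 are named for their place upstream of CD73. They and Enpp1, Ada and Entpd7 were picked after their values were seen.

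**Figure D4:**
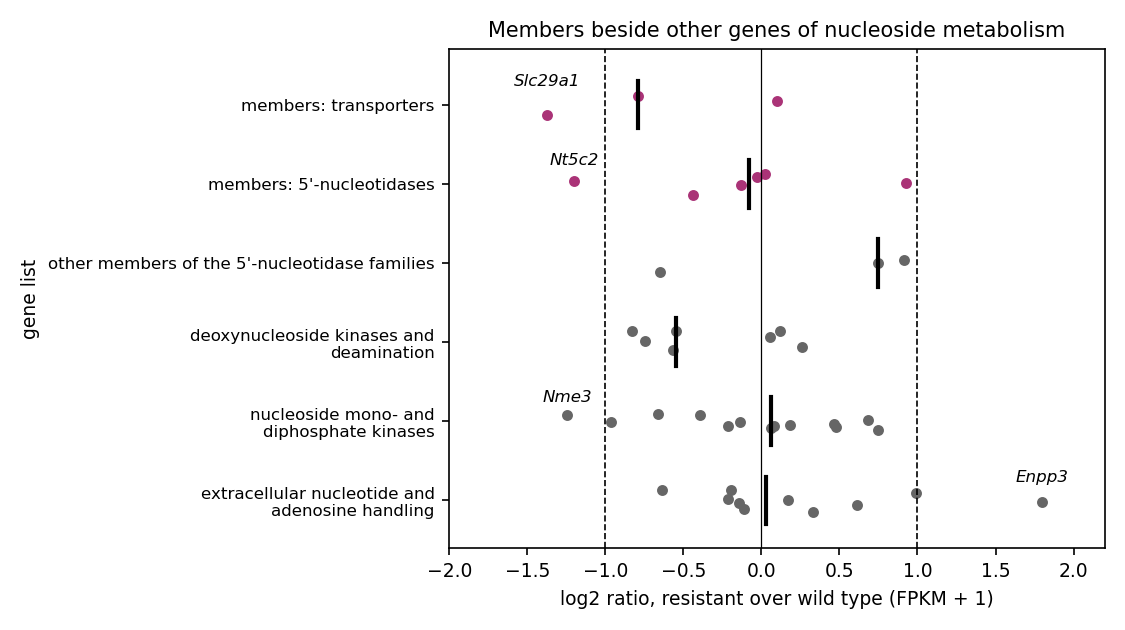
Log2 ratio of resistant to wild type for each measured gene (points) of the transporters, the nucleotidases and the other lists of nucleoside metabolism, with a bar at each list's median and dashed lines at 2-fold. Of the points beyond the lines, Slc29a1, Nt5c2 and Nme3 are lower and Enpp3 is higher.

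The genes beside each of the 10 on the chromosome were then compared in the same way. Of the 40 nearest measured protein-coding genes, 2 on each side of each gene, 8 were at least 2-fold apart, which is 20% beside 16.3% of all measured genes. Their median log2 ratio was 0.09. Next to Slc29a1, Hsp90ab1 had a log2 ratio of -0.07 and Tmem63b one of 0.36, with Slc35b2 (-0.69) and Mrpl14 (0.47) further out, so all 4 lay within 2-fold. Next to Nt5c2, Cnnm2 had a log2 ratio of 0.26 and Pcgf6 one of -0.74. As3mt (0.52) and Taf5 lay further out, and Taf5, which encodes a subunit of the general transcription factor TFIID, was at least 2-fold lower, at 5.37 FPKM in wild type and 1.72 FPKM in resistant cells. All 4 neighbours of Nt5e had a log2 ratio below 0, the opposite side to Nt5e, and Syncrip was the lowest of them at -1.004, with 135 FPKM in wild type and 67.1 FPKM in resistant cells. Syncrip and Snx14 (-0.71) lie 74.9 kb and 4.66 kb from Nt5e. Cep162 (-0.03) and Cyb5r4 (-0.10) barely differed and lie 1072 kb and 1249 kb away.

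The other neighbours at least 2-fold apart were Brms1 (log2 ratio -1.17) beside Slc29a2, Fkbp10 (-1.88) beside Nt5c3b and Flcn (-1.20) beside Nt5m, all lower in resistant cells. Higher were Ppm1k (2.01) and Herc6 (1.02) beside Nt5c3, and Spata6 (1.10) beside Cmpk1. Ppm1k lies 583 kb from Nt5c3 and Spata6 lies 3130 kb from Cmpk1, each the nearest measured gene on its side. On the other side the nearest was much closer, Fkbp9 at 3.04 kb from Nt5c3 and Stil at 12.9 kb from Cmpk1.

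**Figure D5:**
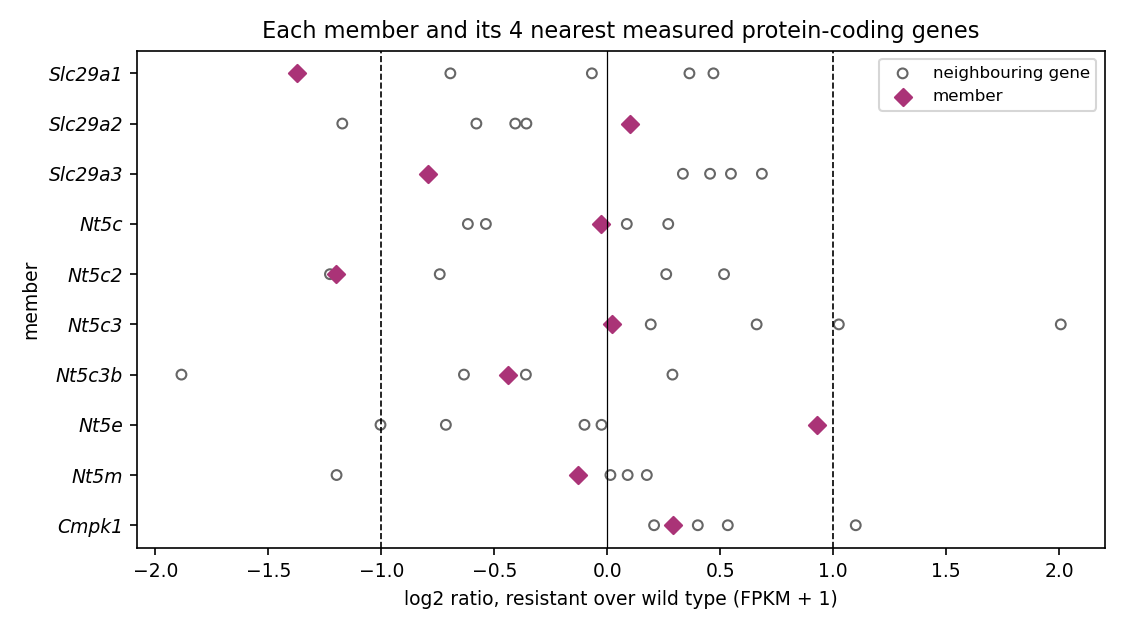
Log2 ratio of resistant to wild type for each of the 10 genes (diamonds) and its 4 nearest measured protein-coding genes (open circles), with dashed lines at 2-fold. The 4 neighbours of Slc29a1 lie between -0.69 and 0.47, to the right of Slc29a1 at -1.37, and those of Nt5e lie between -1.004 and -0.03, to the left of Nt5e at 0.93.

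The labels give pancreas as the tissue of these cancer cells, and epithelial markers were checked beside those of other pancreatic cells. Of 9 ductal and epithelial markers 7 were measured, summing to 3897 FPKM in wild type and 5612 FPKM in resistant cells, most of it from the keratins Krt8, Krt18 and Krt19. The markers did not all differ in the same direction: Sox9 stood at 8.19 FPKM in wild type and 1.88 FPKM in resistant cells and Cdh1 at 206 and 164 FPKM, while Krt7 stood at 7.56 and 32.6 FPKM. Epcam stood at only 0.21 and 0.10 FPKM and Cldn4 at 0 and 0.052 FPKM. All 4 islet markers were listed at 0 in both libraries. The acinar markers summed to 4.38 and 1.55 FPKM, nearly all from Cela1, and the endothelial markers to 7.49 and 10.4 FPKM, nearly all from Egfl7. In these bulk libraries fewer cells expressing a gene and less RNA per cell cannot be told apart.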

How the data were processed

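The deposited table has 1 row per gene and 1 value per library. Its header names no unit, and the values made by the authors were read as FPKM from their properties. HISAT2, StringTie and GRCm38 are named per the submitters' processing notes, with no role or version. Per the file headers the table also holds the authors' log2 fold change, a score from their test, and its p-value with a q-value. Both columns were joined to the labels by their group names.

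Rows of 1 symbol were summed, and 13 rows marked as failed or too deep to test were left out. The pseudocount was 1, the level minimum 1 FPKM and the threshold 2-fold. Low values stepped by whole fragments: in genes with a single transcript (1000 to 8000 bases, shortened by 170 bases), 93.1% of 1623 wild type values and 93.9% of 1666 resistant values up to 5.5 fragments lay within 0.1 of an integer. From 0.0415 and 0.0429 FPKM per fragment and kilobase, fragments were estimated on each gene's shortest complete coding transcript, which gives the widest interval. Intervals are 95%, exact Poisson for levels and exact binomial (Clopper-Pearson) for ratios. They cover counting error only. Genes were placed with GENCODE M21 on GRCm38, and near-identical copies (at least 90% identity over 200 bases) were sought with BLAST 2.17.0+. The steps were run on simulated data in which counting error was the only noise, so variation between libraries was not tested.

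The text names the 10 genes, every other listed gene at least 2-fold apart (up to 3 in each direction per list), each list's highest-level gene, the gene with the nearest ratio, and neighbours by position; a few others were chosen after their values were seen, among them Dck and the marker genes. The genes and lists were chosen with earlier results of these data known. Pseudocounts of 0.1 and 5, filters of none and 5 FPKM, a 1.5-fold threshold, 2 rescalings, the highest row per symbol and protein-coding genes only were tried. Scripts ran in Python 3.11.15 (scipy 1.17.1, numpy 2.4.6, matplotlib 3.10.9, pandas 2.3.3).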

Additional observations from a re-analysis of the deposited data

How the results depend on the processing

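Slc29a1 and Nt5c2 were at least 2-fold lower under all 6 other ways of computing the log2 ratio, which ranged from -1.46 to -1.27 for Slc29a1 and from -1.29 to -1.04 for Nt5c2 (-1.04 at a pseudocount of 5). These ways are not independent. The highest row per symbol left all 10 values as they were, and the authors' fold change uses the same 2 values per gene. Nt5e ranged from 0.83 to 0.96 and stayed within 2-fold, at 0.83 with a pseudocount of 5 and 0.84 after rescaling to the upper quartile, which also brought Cmpk1 to 0.20. Nt5c3, near 0, had a log2 ratio of -0.07 after that rescaling. Slc29a3 depended on the pseudocount: -1.22 at 0.1, -0.32 at 5 and -1.30 in the authors' deposited table, so it passed the 2-fold line at 0.1 and without a pseudocount, and not at 1 or 5. The median of all measured genes moved by under 0.1 under both rescalings. The FPKM sums were 998508 in wild type and 1197280 in resistant cells, and rescaling to equal sums was not tried. Such a rescaling would lower every resistant value. Ratios near 1, as for Cmpk1, Nt5c and Nt5c3, are therefore not settled. At a pseudocount of 0.1, the genes past the 2-fold line numbered 1315 higher and 1553 lower, of 12193 measured. At a pseudocount of 5, 428 were higher and 297 lower. At a 1.5-fold threshold, 2241 were higher and 2407 lower. In the lists, 1 of the 3 measured nucleotidase relatives was apart in either direction at a pseudocount of 0.1. So were 2 of 13 genes in the mono- and diphosphate kinase list, which includes Uck1, Uck2 and Uckl1, and 2 of 10 extracellular nucleotide and adenosine genes. At a pseudocount of 5 the genes apart numbered 0 in the last 2 lists. After rescaling to the upper quartile they numbered 2 in the mono- and diphosphate kinase list. Of all 12142 genes measured after that rescaling, 818 were higher and 1183 lower. At a 1.5-fold threshold the genes apart numbered 3 of 3 nucleotidase relatives and 2 of 7 deoxynucleoside genes. Apart at that threshold were also 5 of 13 genes in the mono- and diphosphate kinase list and 4 of 10 extracellular nucleotide and adenosine genes. Of the 10 main genes 1, Nt5e, was then higher and 3 were lower, beside 2241 higher and 2407 lower of all 12193. In sets this small such counts cannot be read as a departure from that background. The median of the deoxynucleoside genes was -0.25 with the 5 FPKM filter and that of the nucleotidase relatives 0.33 with no filter. That of the extracellular nucleotide and adenosine genes was -0.11 with the 5 FPKM filter and -0.03 with no filter. After rescaling to the upper quartile the medians of the mono- and diphosphate kinase list and of the extracellular nucleotide and adenosine genes, both near 0, were -0.03 and -0.05. No paired analysis was possible because each group has 1 library, and no library could be left out. Slc29a2, Slc29a3 and Nt5m rest on the fewest fragments, 69 to 176.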
